A study of Mus musculus with 12 samples.

Results

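The integrated stress response is read here through 10 genes, chosen by name: Atf4, Atf5 and Ddit3, which encode transcription factors, and 7 targets of ATF4, namely Asns, Psat1, Phgdh, Sesn2, Trib3, Chac1 and Slc7a11. They are 10 of 55073 gene symbols listed in RNA-seq of mouse posterior cortex, and 9 of them, all but Trib3, are among the 15002 genes with at least 10 counts in every library. The study compared Larp1 cKO mice (Nestin-Cre;Larp1-flox/flox), which lose the RNA-binding protein LARP1 in the brain, with Larp1 WT mice (Nestin-Cre), to ask which mRNAs depend on LARP1. Both groups carry Nestin-Cre on a C57BL/6J background and are male, the Nestin promoter drives Cre in early progenitors of neurons and of part of the glia, and no age at collection was found for them. The labels describe 12 samples, as 3 replicates of 2 parts for each genotype, while the files are 6, each headed by a mouse number (678, 687, 688, 698, 700 and 703). No label or header says which genotype a numbered mouse had, and genotype was not read from the values. The 10 genes are therefore described over 6 libraries of unknown genotype, and Larp1 cKO was not set against Larp1 WT.

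Cells slow general translation when eIF2 is phosphorylated, which happens under amino acid shortage, misfolded protein in the endoplasmic reticulum, viral RNA or haem deficiency. A few mRNAs with open reading frames upstream of the coding sequence are then translated better, and among these are Atf4, Atf5, Ddit3 and Ppp1r15a. ATF4 pairs with C/EBP proteins at composite C/EBP-ATF response elements and raises genes for amino acid synthesis and uptake, for redox balance and for shutting the response off. In the brain, serine made by PHGDH and PSAT1 comes largely from astrocytes, and loss-of-function variants of these enzymes and of ASNS cause neurological disease in humans.

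Promoter sequence was searched for the core of the response element, TGATGNAA on either strand, because this is the DNA through which ATF4 acts on its targets. RefSeq promoter windows (build GRCm38.p6, from 250 bases before to 50 after a gene's start) were listed for all 10 genes, and Asns, Trib3, Chac1 and Slc7a11 held at least 1 match. Of 27025 genes with such a window, 4.51% did. The matches are shown 5′ to 3′ on the strand that reads TGATGNAA, with the motif in capitals.
Asns, chr6:7693217-7693240: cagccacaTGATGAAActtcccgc
Trib3, chr2:152344031-152344054: cgcccggcTGATGTAAacctgagc
Chac1, chr2:119351041-119351064: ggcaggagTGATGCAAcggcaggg
Slc7a11, chr3:50443664-50443687: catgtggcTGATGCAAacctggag
Slc7a11, chr3:50443645-50443668: ctgcatgaTGATGCAAattctcca
The Chac1 match lay 173 bases upstream of the annotated start of its main transcript, and the Slc7a11 matches 61 and 42 bases upstream. The Trib3 match lay 7 bases upstream of the start of Trib3-201, but began at 15 from the RefSeq start, downstream of it. The Asns match fell in the first exon of Asns-201, but began at -23 from the RefSeq start. The annotations thus place the starts of Trib3 and Asns differently. The 2 upstream ATGs counted below for Asns-201 overlap the Asns match. Chac1 and Slc7a11 also matched the fuller composite letters TTGCATCA, which read as TGATGCAA on the other strand, so these are the same bases. Of all genes with a window, 1.87% held TTGCATCA or TTGCAACA. With 1 mismatch allowed outside TGATG, Atf5 joined the other 4 genes, but 23.9% of all genes then matched. These matches are letters in a window of fixed length, and no binding was measured.

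The second feature that marks the pathway sits in the mRNA. In GENCODE M21 the main isoforms, those with the highest median TPM, of Atf4 and Atf5 each carry a short upstream frame followed by a longer one that runs into the coding sequence out of frame. The AUG of each is shown as ATG in capitals with 9 bases on either side.
Atf4-201, frame 2: gcggccaccATGgcgtattag
Atf4-201, frame 3: gcctaagccATGgcgctcttc
Atf5-201, frame 1: gcccgcgcaATGgctctgtag
Atf5-201, frame 2: ttcgccgccATGgagtcctcc
In Atf4-201 (chromosome 15), frame 2 encodes 3 amino acids and ends well ahead of the coding sequence, and frame 3 encodes 59 and ends 83 bases inside it. A further ATG of Atf4-201, the first from the 5′ end, opens a frame of 36 codons. In Atf5-201 (chromosome 7), the short frame also encodes 3 amino acids, and the longer one encodes 58 and ends 56 bases inside the coding sequence. The pair of genes thus share a layout, a frame of 3 codons and then an overlapping frame of nearly equal length. The frames of Ddit3-201 (chromosome 10), of 34 and 31 codons, share a reading frame and a stop codon ahead of the coding sequence. Ppp1r15a-201, the mRNA of the inducible eIF2 phosphatase subunit GADD34, has 3 upstream ATGs and none of their frames reaches the coding sequence. Among the targets, Asns-201 has 2 upstream ATGs, Psat1-201, Sesn2-201 and Slc7a11-201 have 1 each, and Phgdh-201, Trib3-201 and Chac1-201 have none. The frame of Psat1-201, of 66 codons, also runs out of frame into the coding sequence and ends 91 bases inside it. The share of all genes with such an overlapping frame was not counted. Of 13134 detected protein-coding genes whose main isoform has an annotated coding sequence, 48.9% have at least 1 upstream ATG and 27.2% at least 2.

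**Figure D1:**
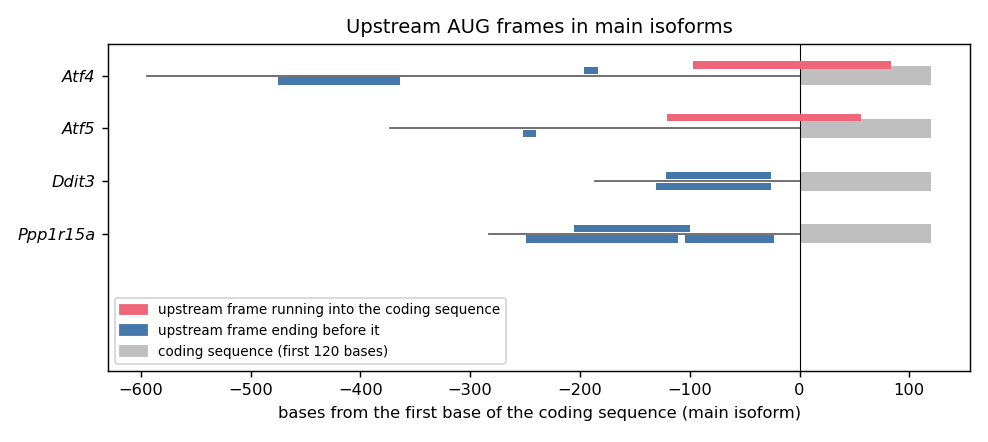
Upstream ATG frames in the main isoforms of 4 mRNAs of the pathway, drawn to scale in bases from the first base of the coding sequence (0 on the x axis). Red bars are frames that run into the coding sequence, which end 83 bases inside it in Atf4 and 56 bases inside it in Atf5, and blue bars are frames that end before it.

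LARP1 binds mRNAs whose first base is a cytosine followed by a run of pyrimidines, the 5′ terminal oligopyrimidine or TOP motif, so the annotated first bases of the 10 main isoforms were read as well. None of the 10 opened with C and at least 4 further pyrimidines, beside 2.35% of 13631 detected protein-coding genes. With so low a share, most sets of 10 genes would hold none, so this does not set the members apart. The starts of Atf4 and of both genes that open with C are shown, with the leading pyrimidines in capitals.
Atf4-201: ggctaggtgtcccaccccgc
Asns-201: Cacgggttgggtcccagcca
Trib3-201: Cggggatccgagcccgcgtc
Asns-201 and Trib3-201 open with a single C and a purine follows. When the start was allowed to move by up to 5 bases, Ddit3 matched, and when any annotated isoform counted, Atf5 did, with 10.8% and 10.7% of detected protein-coding genes. Annotated starts are not starts measured in these libraries.

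Libraries held 34689262 to 44463362 expected counts (median 40566108), and nuclear protein-coding genes held 22.7% of TPM in mouse 700 to 28.8% in mouse 703. Cortical excitatory markers were present in every library (Slc17a7, the vesicular glutamate transporter, at 347 to 492 TPM), and the choroid plexus marker Ttr was at 2.13 TPM or below. The 11 immediate early genes, switched on by neuronal activity, stood apart in 1 library, with a summed level of 1739 TMM-scaled CPM (counts relative to library size) in mouse 688 and 442 to 884 in the others. Levels between genes are given in TPM, which accounts for transcript length, and levels of a gene between libraries in TMM-scaled CPM, since the TPM of every mRNA moves with the share taken by other RNA.

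Atf4 was the most abundant of the 10 mRNAs. Its TPM was 47.6, 44.6, 57.9, 37.9, 26.5 and 51.0 in mice 678, 687, 688, 698, 700 and 703, in that order, which is the order used for all lists of 6 values. Asns, asparagine synthetase, was next with a median of 30.1 TPM and a range of 21.2 to 35.7. Phgdh and Psat1, the first enzymes of serine synthesis from 3-phosphoglycerate, were at 18.4 to 24.7 and 17.7 to 22.3 TPM. Ddit3, which encodes CHOP, was at 10.9 to 12.6 TPM. Atf5 was at 6.19 to 10.1 TPM and Slc7a11, the cystine-glutamate antiporter subunit xCT, at 6.09 to 7.02 TPM. Chac1, a glutathione-degrading enzyme, was at 1.61 to 4.44 TPM, and Sesn2, a leucine sensor upstream of mTORC1, at 2.42 to 4.43 TPM. Trib3, a pseudokinase that restrains the response, was barely detected, at 0.06 to 0.15 TPM.

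The order by median held between some neighbours in every library and not between others. The ranges over the 6 libraries did not overlap between Psat1 and Ddit3, Ddit3 and Atf5, Slc7a11 and Chac1, or Sesn2 and Trib3. They overlapped between Atf4 and Asns, Asns and Phgdh, Phgdh and Psat1, Atf5 and Slc7a11, and Chac1 and Sesn2, although Atf4 was above Asns, Phgdh above Psat1 and Atf5 above Slc7a11 within each of the 6 libraries. Asns was above Phgdh in 5 of 6. Chac1 was above Sesn2 in only 2 of 6, mice 687 and 688. Together the 10 genes made up 112 TPM in mouse 700 to 168 TPM in mouse 703. As bulk RNA was measured, fewer cells of a type and less RNA per cell cannot be told apart in any of these levels.

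**Figure D2:**
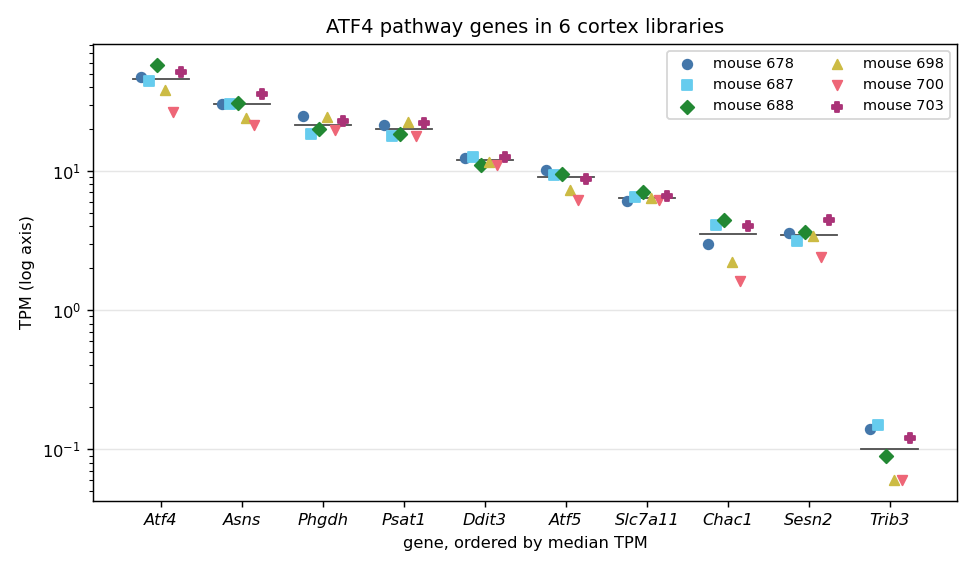
TPM of the 10 genes (y axis, log scale) in the 6 cortex libraries, with genes on the x axis by median TPM, 1 symbol per mouse and a bar at the median. Atf4 runs from 26.5 to 57.9 TPM, and mouse 700 is the lowest point for Atf4, Asns, Ddit3, Atf5, Chac1 and Sesn2 on this scale.

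Atf4 (chr15:80255184-80257541, plus strand, mm10) and Chac1 (chr2:119351229-119354381, plus strand) were the detected members that differed most between libraries. Atf4 was at 75.2, 72.7, 91.1, 58.0, 48.4 and 69.7 CPM. The value was highest in mouse 688 and lowest in mouse 700, and mouse 698 was the second lowest. The highest library held 1.88 times the lowest, with a counting interval of 1.78 to 1.99 (95%, exact binomial, which covers counting error only). Chac1 was at 4.43, 6.26, 6.56, 3.20, 2.75 and 5.18 CPM, from 108 to 275 counts. Its highest and lowest libraries, mice 688 and 700, were those of Atf4, and mouse 698 was again the second lowest. The ratio was 2.38 (1.90 to 3.01).

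Of the 9 detected members, these 2 reached a highest to lowest ratio of at least 1.5, as did 28.2% of all detected genes. The same 2 were among the 5% of genes whose spread exceeded most that of genes of like mean, with Atf4 at the 95.6th percentile and Chac1 at the 97.1st. The call for Atf4 rested on 2 libraries, since only Chac1 was among the most variable 5% without mouse 688 or without mouse 700. The median ratio over the 9 members was 1.33, beside 1.31 over all detected genes, but this ratio is not matched for level. Against genes of like mean, Atf5 was at the 89.1st percentile of spread, Asns at 83.7 and Slc7a11 at 76.0. Phgdh was at 66.7, Sesn2 at 65.1, Psat1 at 47.1 and Ddit3 at 30.4.

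Atf5, Asns and Sesn2 differed less. The low values of Atf5 and Asns fell in mice 698 and 700 as well, while Sesn2 shared only mouse 700. Atf5 was at 16.7, 15.9, 15.6, 11.8, 11.5 and 12.5 CPM, a ratio of 1.45 (1.28 to 1.64). The first 3 libraries lay above the other 3, with mice 700 and 698 at the bottom. Asns was at 53.8, 55.1, 53.9, 42.7, 44.2 and 56.7 CPM, a ratio of 1.33 (1.25 to 1.42). Here 4 libraries lay within 53.8 to 56.7 CPM and mice 698 and 700 stood below them. Sesn2 was at 11.9, 10.8, 12.1, 10.9, 9.33 and 12.8 CPM, a ratio of 1.37 (1.19 to 1.57). Mouse 700 was lowest and mouse 687 second lowest, and without mouse 700 the ratio was 1.18.

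Phgdh and Psat1 did not share this order. Phgdh was at 39.1, 32.4, 34.1, 40.1, 38.3 and 33.2 CPM, a ratio of 1.24 (1.15 to 1.33), and Psat1 was at 51.7, 43.4, 43.6, 45.7, 47.9 and 44.8 CPM, a ratio of 1.19 (1.12 to 1.27). For both genes, mice 678, 698 and 700 held the 3 highest values and mouse 687 the lowest. In TPM as deposited, mouse 703 took the place of mouse 700 among the 3 highest for both. The 5 oligodendrocyte markers used (Mbp, Mog, Mag, Cnp and Mobp) were also above their own median in mice 678, 698 and 700, with summed levels of 885 to 979 CPM there and 552 to 656 CPM in the other 3. Astrocyte markers, of the main serine-making cells, had their lowest sum, 4613 CPM, in mouse 700, and ran from 4904 to 5497 CPM in the other 5. Gene by gene, 2 of the 8 astrocyte markers were lowest in mouse 700 and 4 in mouse 703. Their part in the levels of Phgdh and Psat1 was not tested.

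Ddit3 and Slc7a11 followed neither order. Ddit3 was at 9.02, 9.35, 7.88, 8.29, 9.12 and 7.85 CPM, a ratio of 1.19 with a counting interval of 1.03 to 1.39. Mouse 700 held its second highest value, while mouse 698 was at 0.96 of its median. In TPM as deposited, Ddit3 was lowest in mouse 700, at 10.95 TPM, and highest in mouse 703, at 12.58 TPM. Slc7a11 was at 46.2, 58.4, 58.5, 53.3, 49.7 and 47.3 CPM, a ratio of 1.27 (1.19 to 1.34). It was highest in mice 687 and 688, as was Chac1, but lowest in mouse 678, or in mouse 703 with TPM rescaled over nuclear protein-coding genes. Trib3 had 7, 13, 7, 2, 5 and 8 counts, and its ratio of 5.23 had an interval of 1.18 to 47.75, so its order across libraries was not resolved at this depth.

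**Figure D3:**
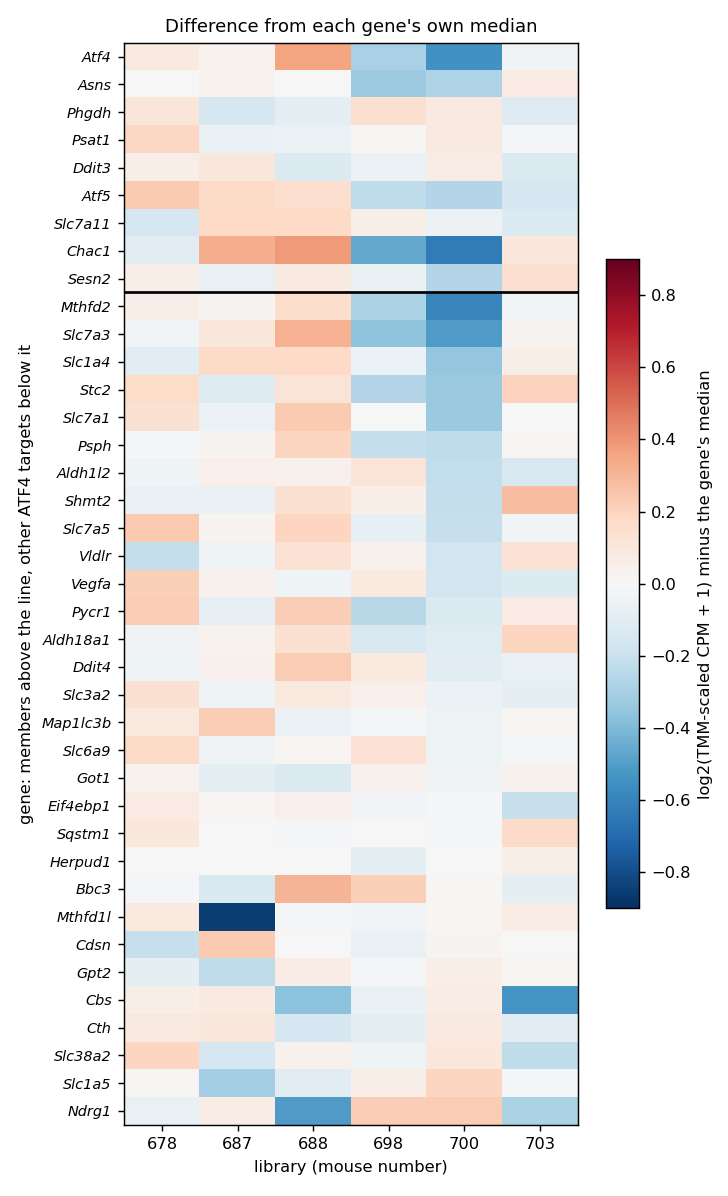
Difference of each gene from its own median over 6 libraries, on the log2(TMM-scaled CPM + 1) scale (colour, red above and blue below), for the 9 detected members (above the line) and 30 other ATF4 targets (below it, ordered by mouse 700). Atf4 and Chac1 are 0.55 and 0.63 below their medians in mouse 700, and blue cells of the same column run through the upper part of the lower block.

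Counting over members gives the same picture by library. Mouse 700 held the lowest value of 4 of 9 members (Atf4, Atf5, Sesn2 and Chac1), 44.4%, while it held the lowest value of 14.8% of all detected genes. The other libraries held the lowest value of 1 (mouse 678), 2 (mouse 687), 0 (mouse 688), 1 (mouse 698) and 1 (mouse 703) members, beside 15.6%, 18.8%, 15.3%, 14.7% and 20.9% of all detected genes. In mice 698 and 700 together lay the 2 lowest values of 4 of 9 members (Atf4, Atf5, Asns and Chac1), and of 7.07% of all detected genes. These counts by library were chosen after the values were seen, and the pair was taken as the 2 libraries lowest in Atf4, so Atf4 is counted by construction. Members above their own median numbered 6, 6, 6, 3, 3 and 3, while the share of all detected genes above their own median was 50.5%, 51%, 49.5%, 48.9%, 51.5% and 48.7%. In TPM as deposited the members above their median were 0 in mouse 700 and 8 in mouse 703, the libraries with the lowest and the highest share of TPM in nuclear protein-coding genes.

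Mouse 700 was also low for a list of 32 other ATF4 targets, of which 30 were detected and Fgf21 and Gdf15, secreted stress hormones, were not. Mouse 700 held the lowest value of 12 of 30, 40%: Psph, Shmt2, Mthfd2, Aldh1l2, Slc7a1, Slc7a3, Slc7a5, Slc6a9, Slc1a4, Ddit4, Stc2 and Vegfa. Psph makes serine, Shmt2, Mthfd2 and Aldh1l2 act in one-carbon metabolism, and the Slc genes encode amino acid transporters, as do other genes of the list that were not lowest there. The other libraries held the lowest value of 2 (mouse 678), 4 (mouse 687), 5 (mouse 688), 3 (mouse 698) and 4 (mouse 703). With TPM rescaled over nuclear protein-coding genes, an alternative added after the data were seen, mouse 700 held the lowest value of 4 members and 14 other targets, beside 18.6% of all detected genes. In mouse 700 the 4 endothelial markers also had their lowest sum, 37.2 CPM against 38.3 to 56.8 CPM in the others, as had the astrocyte markers. Gene by gene, only 2 of the 4 endothelial and 2 of the 8 astrocyte markers were lowest there, and 4 astrocyte markers were lowest in mouse 703. The 6 excitatory neuron markers, at 3836 CPM in mouse 700, lay within the 3425 to 4238 CPM of the others. The part of these cell types in the low values was not tested. The 2 lowest values lay in mice 698 and 700 for 8 of 30: Psph, Mthfd2, Aldh18a1, Pycr1, Slc7a3, Slc7a5, Stc2 and Herpud1. The same held for 3 of 12 partners and regulators of ATF4 (Fbxw11, Btrc and Egln3), beside the 7.07% of all detected genes. It held for 1 of 11 genes that act on eIF2 and 1 of 11 for eIF2, eIF2B, eIF2A and eIF2D. It also held for 1 of 10 under p53 or oxidative stress control, 0 of 20 of the ATF6 and IRE1 branches and 0 of 9 for mitochondrial stress.

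**Figure D4:**
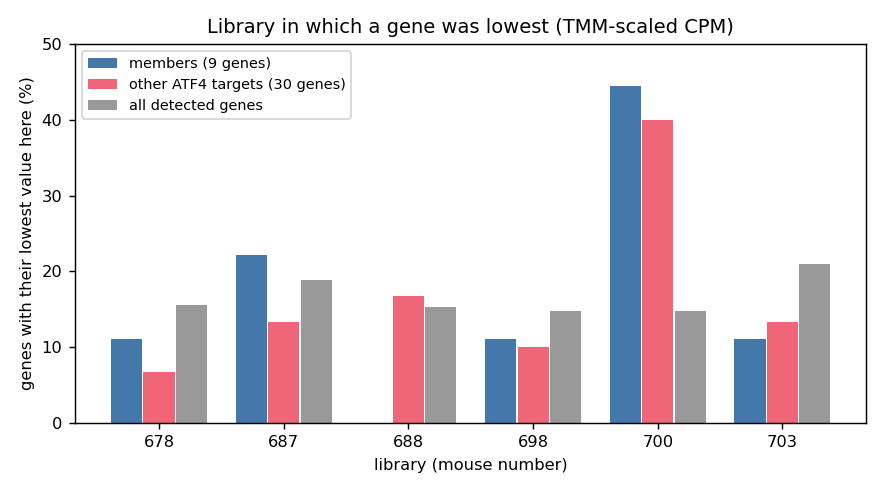
Share of genes (y axis, %) whose lowest TMM-scaled CPM fell in each of the 6 libraries (x axis), for 9 members, 30 other ATF4 targets and all 15002 detected genes. In mouse 700 the shares are 44.4%, 40% and 14.8%.

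Mthfd2 and Slc7a3, singled out after their values were seen, had an order close to that of Atf4. Mthfd2, the mitochondrial folate enzyme, was at 4.07, 3.94, 4.42, 3.00, 2.22 and 3.79 CPM, a ratio of 1.99. Slc7a3, a cationic amino acid transporter, was at 5.80, 6.40, 7.59, 4.38, 3.85 and 6.01 CPM, a ratio of 1.97. Both were highest in mouse 688, second lowest in mouse 698 and lowest in mouse 700, as were Atf4 and Chac1. In all, 9 of the 30 targets reached a ratio of 1.5, a share close to the 28.2% of all detected genes, and 1 was among the most variable 5%, with a median ratio of 1.39. The count was 14 with TPM rescaled over nuclear protein-coding genes and 17 in TPM as deposited, where 33.9% and 47.9% of all detected genes reached it.

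The most abundant targets were nearly level. Got1, the cytosolic aspartate aminotransferase, was at 183 to 207 CPM (ratio 1.13), and Sqstm1, an autophagy receptor, at 223 to 254 CPM (ratio 1.14). The largest ratios of the list lay elsewhere. Slc1a5, a neutral amino acid transporter, had 25 to 48 counts and a ratio of 2.15, with its highest value in mouse 700. Mthfd1l, another mitochondrial folate enzyme, was at 12.5, 5.99, 11.5, 11.4, 11.8 and 12.2 CPM, so that mouse 687 alone was low, at a ratio of 2.08.

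The genes that act on eIF2 itself had lower ratios than Atf4. Of 11 detected genes for eIF2 kinases, their regulators and phosphatase subunits, 2 reached a ratio of 1.5: Eif2ak2, the RNA-activated kinase PKR, at 1.51 with 106 to 172 counts, and Ppp1r15a at 1.53. The share of all detected genes was 28.2%, and the count was 1 without mouse 687 or mouse 688 and 0 without mouse 703. Ppp1r15a was highest in mouse 688 and lowest in mouse 703. The abundant members Impact, an inhibitor of the kinase GCN2, and Ppp1cb, a catalytic subunit of protein phosphatase 1, had ratios of 1.17 and 1.20. Another list held 11 genes, for subunits of eIF2 and of its exchange factor eIF2B and for the separate factors eIF2A and eIF2D. Among these, only Eif2s3x, the gamma subunit of eIF2, reached 1.5, at 1.55, and none did without mouse 678 or mouse 698. That ratio is near the cut, and no single library stood alone. Eif2s3x was at 83.83, 77.36, 58.77, 54.1, 79.55 and 57.33 CPM, with mice 678, 687 and 700 above the rest. It was highest in mouse 678 and lowest in mouse 698, while Eif2s2, the beta subunit, had a ratio of 1.27 and Eif2a one of 1.45.

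Of 14 partners and regulators of ATF4, Atf3 and Batf3 were not detected, and 4 of the other 12 reached 1.5 (Cebpb, Cebpd, Jun and Egln3), beside 28.2% of all detected genes, and 2 did without mouse 703. Cebpb, which pairs with ATF4 at the composite element, was highest in mouse 698 and lowest in mouse 703, with a ratio of 1.74. Egln3, a prolyl hydroxylase, was highest in mouse 703 and lowest in mouse 700, with a ratio of 1.98. The abundant Atf2 and Jund had ratios of 1.17 and 1.27.

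The ATF6 and IRE1 branches and the mitochondrial list had fewer genes past this ratio than the 28.2% of all detected genes. Of 20 genes of the ATF6 and IRE1 branches, which answer misfolded protein in the endoplasmic reticulum, 1 reached 1.5, the sensor gene Ern1 at 1.51, and none did without mouse 687 or mouse 698. The chaperone genes Calr and Canx had ratios of 1.33 and 1.09, and Creld2 had 1.42. None of 9 mitochondrial stress genes reached 1.5, with Hspd1, Hspa9, Hspe1 and Lonp1 at 1.12 to 1.27. Of 10 genes under p53 or oxidative stress control, 3 did: Cdkn1a, the cell cycle inhibitor p21, at 1.92 and among the most variable 5%, Nqo1 at 1.56 with 46 to 69 counts, and Hmox1. Sesn3 and Srxn1 had ratios of 1.32 and 1.20. The median ratio was 1.22 for the endoplasmic reticulum list, 1.18 for the mitochondrial list and 1.23 for the p53 and oxidative list, each below the 1.31 of all detected genes. Neither the medians nor the shares are matched for level, so they do not show less spread than in genes of like mean.

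Each of the 9 detected members was carried mainly by 1 isoform, the first listed for its gene. The 10 genes have 38 annotated transcripts, 23 of them protein-coding. For Trib3 the counts were too few to tell, as Trib3-201 held 33.3% to 100% of its TPM on 1.3 to 13 counts. Only Psat1 had a second isoform with at least 10% of the gene's TPM in every library. Psat1-205 held 11.2%, 21.4%, 19.7%, 19.6%, 26.3% and 28.3% of Psat1 TPM. The lowest share was in mouse 678, which had the highest total level of Psat1 in TMM-scaled CPM. In TPM, Psat1 was highest in mouse 698, at 22.3, and was at 21.5 in mouse 678. Slc7a11-205 and Atf5-202 passed 10% in some libraries and were highest in mouse 700. Slc7a11-205 held 15.9%, 0.8%, 8.7%, 4.1%, 26.8% and 11% of Slc7a11 TPM, on 5 to 169 expected counts. Atf5-202 held 11.1%, 7.4%, 10.6%, 7.5%, 17.8% and 11% of Atf5 TPM, on 30 to 79 expected counts. These shares are estimates that divide reads between overlapping isoforms. The annotated retained-intron transcript of Atf4 held 2.5% to 3.7% of Atf4 TPM.

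**Figure D5:**
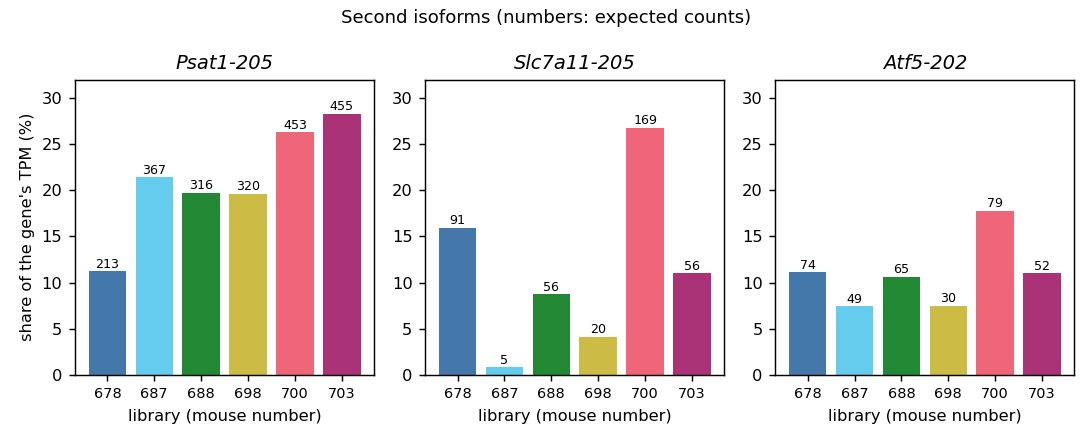
Share of the gene's TPM (y axis, %) held by Psat1-205, Slc7a11-205 and Atf5-202 in the 6 libraries (x axis), with expected counts above the bars. Psat1-205 runs from 11.2% in mouse 678 to 28.3% in mouse 703, and the other 2 isoforms are highest in mouse 700, at 26.8% and 17.8%.

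Some reads of the members could have come from other genes. Phgdh has many processed pseudogenes of over 90% identity, of which Gm7901, 98.7% identical over 1597 bases, held the most, at 0.30 to 0.73 TPM and up to 39 counts. The 3′ part of Slc7a11-201 matches alpha-tubulin genes on the opposite strand (Tuba1a, 93.4% over 483 bases, at 312 to 487 TPM). Mars overlaps Ddit3, and Nup62 and Il4i1 overlap Atf5, on the opposite strand. The labels and the paper's list of materials name a directional kit, while its RNA-seq methods name the kit without that word. No source used here says whether strand was used in counting, so such reads cannot be told apart.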

How the data were processed

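Posterior cortex RNA of male mice was rRNA-depleted and sequenced as paired-end libraries. After adapter trimming (cutadapt), the authors aligned reads to mm10 (STAR) and estimated transcript abundance (RSEM), with no version stated. Unnormalized expected counts and TPM, scaled over all 142351 listed transcripts, were deposited for each transcript. The paper's methods name UCSC gene annotation and RNEasy columns, while the files list Ensembl transcripts and the labels name TRIzol. That all 6 files are cortex is inferred from the labels. The 12 columns used are matched to no single sample, and 18 further value columns were not used.

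Unversioned transcript identifiers were looked up in GENCODE M21 (99.36% found, 910 not) and values were summed per gene. Counts were rounded and scaled with TMM factors (edgeR 4.0.16, R 4.3.3). A gene was detected with at least 10 counts in every library. Spread was the SD of log2(CPM + 1) minus the median SD of the 501 genes nearest in mean, and the top 5% were called. No 2 libraries were duplicates (chi-square per degree of freedom 14.8 to 67.4 over 15 pairs). A marker gene of 1 cell type list is not reported here and was left out of its list. With no genotype per file, no test between groups was run. Motif and open reading frame searches used exact letters, and similar genes were sought with blastn at 90% identity over 100 bases.

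The members and gene lists were chosen with earlier results of these data known. Named genes were all members and, per list, the 2 detected genes of highest median TPM and the 2 of largest ratio; a gene outside this rule is named as chosen after its values were seen or as part of a full count. Alternatives were DESeq2 1.42.0 size factors, TPM as deposited, TPM rescaled over nuclear protein-coding genes, no filter, a pseudocount of 0.25 and leaving out each library.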

Additional observations from a re-analysis of the deposited data

Results flagged for a closer look

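The summed TPM of the 11 immediate early genes stood apart in mouse 688. It was 684 TPM there and 193 to 293 TPM in the other 5 libraries, and the gap to the nearest library was 0.796 of the whole range, past Dixon's 95% limit for 6 values. Chance flags about 1 in 20 groups, and 28 groups were looked at, the 10 genes and the summed lists among them. The same library held the highest values of Atf4 and Chac1. The part of neuronal activity genes in those values was not tested. Without mouse 688, the ratio of Atf4 was 1.55 and that of Chac1 was 2.28.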

How the results depend on the processing

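Of the alternatives, TPM as deposited changed most: members above their own median numbered 8 in mouse 703 and 0 in mouse 700, and Ddit3 was lowest in mouse 700. In all, 25 of 34 alternative values of the main counts and shares, with 159 of 185 of the others, stayed within 1.5 times a count, or within the spread or counting interval of a share or ratio. Members with a ratio of at least 1.5 numbered 5 in TPM as deposited (Atf4, Atf5, Asns, Sesn2 and Chac1), where 47.9% of all detected genes reached it. Members among the most variable 5% numbered 1, Chac1, with a pseudocount of 0.25, and 1 to 2 when each library was left out. The summed share of the 10 genes, 0.0153% of TPM (median), was 0.059% of nuclear protein-coding TPM and 0.0299% of expected counts. The response element was found in 2 members as TTGCATCA or TTGCAACA, and a TOP start in 1 member with a start within 5 bases and in 1 with any annotated isoform. Mouse 700 held the lowest value of 4 to 6 members and of 12 to 18 other ATF4 targets over settings added after the data were seen, and in TPM as deposited, 49% of all detected genes were lowest there. No paired analysis was possible because no file is tied to a replicate number. Libraries have no genotype, age or batch, and counts under 10 limit Trib3. Counting intervals leave out the spread between mice and the choice of the highest and lowest library.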

Other observations

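Larp1 itself, the gene deleted in Larp1 cKO mice, was at 19.96, 18.77, 6.28, 6.44, 17.48 and 7.32 TPM in mice 678, 687, 688, 698, 700 and 703. These values fall into separate clusters, 17.48 to 19.96 TPM and 6.28 to 7.32 TPM, and they were not used to give a library a genotype.

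Of the 20 genes of the ATF6 and IRE1 list, 18 were above their own median in mouse 687, beside 51% of all detected genes. Only 2 were in mouse 698 and 4 in mouse 678, beside 48.9% and 50.5%. Haemoglobin mRNAs, markers of blood, differed more than any of the 9 detected members did, with Hbb-bs (the adult beta chain) at 11.6, 8.56, 0.95, 8.50, 1.92 and 8.04 TPM. It was lowest in mice 688 and 700, the libraries with the highest and the lowest Atf4.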
